A study of Camellia sinensis with 12 samples.

Results

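The loci described here are neighbouring stretches of the tea genome that are listed on opposite strands and whose identifiers name no annotated gene. Members were chosen in 3 steps. Unannotated loci, which carry an XLOC identifier, were kept when they reached 1 FPKM in at least 3 of the 12 libraries and had a mean below 40 FPKM. They were then sorted by start on each scaffold. Neighbours among the kept loci, on the plus and the minus strand, formed a pair when the gap between them was at most 50 kb, overlaps included. Of the 480 pairs so found, 449 were also neighbours among all listed unannotated loci. FPKM counts the fragments assigned to a feature, divided by its length and by the library's mapped fragments. The rule gave 480 pairs made of 913 loci, which are 14.8% of the 6159 loci that met the level rule and part of the 42704 features listed in all. Only levels, positions and strands entered the choice, and all 913 loci passed the filter of the test because the level rule contains it.

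The 12 leaf libraries come from 4 tea genotypes grown in a single germplasm bank, with 3 libraries each and no treatment. Kucha is a kind of tea known for the purine alkaloid theacrine, and it is represented by Kucha-6 (K6) and by Kucha-11 (K11). The conventional varieties are Yinghong 9 (YH9) and Qingxin 1 (QX1). The labels give neither plant ages nor whether a genotype's 3 libraries derive from different plants, and p-values therefore rest on a spread that may be technical. Each kind is represented by 2 genotypes.

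Transcripts from opposite strands can meet in several ways. In a convergent pair the transcripts run towards each other, and in a divergent pair they run apart from starts that face each other. Transcripts that overlap on opposite strands are known as natural antisense transcripts. Spans listed here include introns and the use of strand in counting is not stated, so overlapping members are not shown to be such transcripts. In plants antisense partners are known to vary together at some sites and against each other at others, and divergent neighbours can share a promoter region. For the XLOC loci no gene name, protein or function is given in the files, and none is given here. The annotated genes have no positions in the tables, so an annotated gene may lie between the members of a pair.

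Libraries differed little in total and more in depth. The FPKM values summed to between 609588 and 653908 per library, and the member loci held 0.719% to 0.999% of that sum. Relative depth, estimated from the steps of low values against K6 replicate 2, was 2.80, 1.51 and 1.63 in YH9 replicates 1, 2 and 3, while all other genotypes lay between 0.951 and 1.26. The value of YH9 replicate 1 rests on the fewest ratios, 31 at the step where 10.2 were expected from neighbouring values. YH9 also had the most member loci at 1 FPKM or more, 705.7 ± 10.7 against 642.0 ± 2.6 in K11, 618.7 ± 12.9 in K6 and 616.0 ± 8.5 in QX1 (SD, n = 3 each). The part of depth in this difference was not tested.

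The pairs were spread over 379 scaffolds. A scaffold held 1 pair in 298 cases and at most 4. Most loci, 866, belonged to a single pair, while 47 belonged to 2 pairs, as the middle of a run of alternating strands. The whole stretch covered by a pair had a median of 22360 bp. A single member spanned 3956 bp in the median, introns included, with quartiles of 1942 and 9091 bp, against a median of 3215 bp over the 6159 loci that met the level rule. At the edge of the rule, the widest gap kept was 49967 bp and the next opposite-strand gap was 50120 bp. The highest mean kept was 39.01 FPKM, and the lowest mean that the level limit left out was 40.23 FPKM.

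Overlap was frequent. Of the 480 pairs, 157 overlapped, 170 were convergent and 153 were divergent. Among the overlapping pairs 92 had a span wholly inside the other, 33 met at their 3′ ends and 32 at their 5′ ends. The overlap had a median length of 3115 bp and a range of 198 to 205300 bp. Where the spans did not overlap, the median gap was 15060 bp in convergent and 20780 bp in divergent pairs, and only 28 of these 323 pairs were within 1 kb of each other.

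Most members were weakly expressed. The mean level of a member over the 12 libraries had a median of 2.73 FPKM, with quartiles of 1.27 and 6.93, beside a median of 2.68 FPKM over all loci that met the level rule. Plus-strand and minus-strand members had medians of 2.92 and 2.61 FPKM. The 2 members of a pair were seldom equal: the higher exceeded the lower by a median factor of 2.64 in overlapping, 3.14 in convergent and 3.44 in divergent pairs. In 148 pairs the lower member had a mean below 1 FPKM, and in 21 pairs both members had a mean of at least 10 FPKM. Where a span lay inside the other, the inner member was the higher in 23 of 92 pairs, with median levels of 1.80 FPKM for inner and 4.02 FPKM for outer members.

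Differences between genotypes were common among the members, as they were among unannotated loci at large. A locus was called different when its Benjamini-Hochberg adjusted p in limma was below 0.05 and its log2 difference was at least 1 in size, on log2(FPKM + 1). This scale understates the change of low loci. Of the 913 members 592 (64.8%) were called in at least 1 of the 6 comparisons of genotype pairs, against 46.0% of all tested features and 66.2% of the loci that met the level rule. The members' share is thus near that of unannotated loci of the same level, and the higher share than over all features was found in those loci too.

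K6 against YH9 called 304 members (33.3%), where 21.9% of all tested features were called. K6 against QX1 called 201 (22.0%), where the share over all features was 11.8%. K11 against YH9 called 289 (31.7%; all features 23.9%), and K11 against QX1 called 264 (28.9%; all features 19.2%). K6 against K11 called 253 members (27.7%; all features 19.2%), and YH9 against QX1 called 311 (34.1%; all features 23.8%). Each share lay within 2.7 percentage points of that of the loci meeting the level rule. The members' highest mean fell in YH9 for 329 loci, in K11 for 246, in K6 for 174 and in QX1 for 164. In YH9 this is 36.0%, beside 36.6% of all loci that met the level rule. Among the members 101 reached 1 FPKM in libraries of 1 genotype only, so these passed the level rule through the genotype in which they were high, and 98 of them were called in at least 1 comparison of genotype pairs, which the rule favours.

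The next question was whether the 2 members of a pair vary together over the genotypes. For each pair the Pearson correlation of the 4 genotype means was taken on the log2 scale, as a description. With 4 points a single r is imprecise, and the points of both members come from the same libraries. The reference is the set of all 18963561 possible pairs of loci meeting the level rule, in which the median r was 0.03 with quartiles of -0.48 and 0.55.

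The median r was positive in overlapping pairs, and in pairs that did not overlap it was near that of arbitrary loci. It was 0.56 in the 157 overlapping pairs, with quartiles of -0.16 and 0.88. It was 0.08 in convergent pairs (quartiles -0.51 and 0.60) and -0.06 in divergent pairs (quartiles -0.49 and 0.56). An r above 0.8 was found in 47 overlapping pairs (29.9%) and in 49 of the 323 others (15.2%), where all possible pairs gave 11.9%. An r below -0.8 was found in 9 overlapping pairs (5.73%) and in 38 of the others (11.8%), where all possible pairs gave 9.36%. The genotype with the highest mean was the same for both members in 46.5% of overlapping and 29.1% of other pairs, and in 27.4% of all possible pairs. Over all 480 pairs the median r was 0.18. It was -0.05 in the 109 pairs whose members both reached 5 FPKM in at least 3 libraries, where overlapping pairs had 0.63 and the others -0.12, and 0.39 with gaps limited to 10 kb. The difference between the kinds of pair was not tested, since pairs are not replicates.

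**Figure D1:**
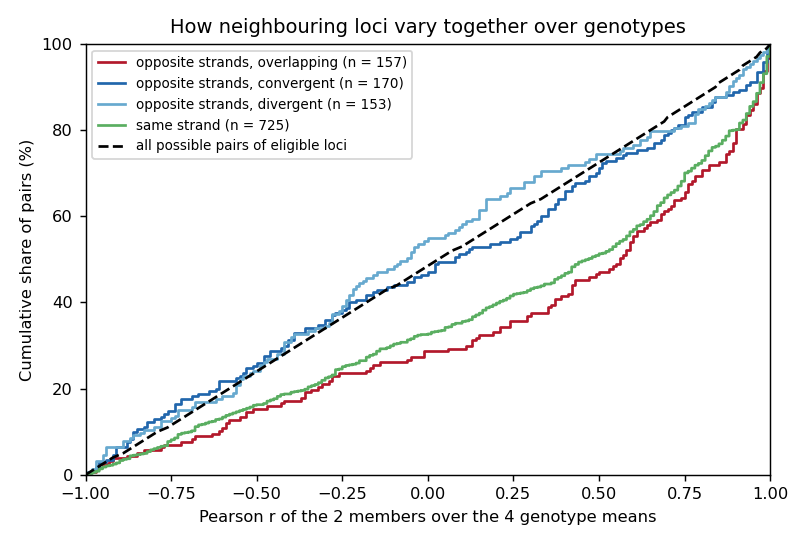
Cumulative share of pairs (vertical axis, %) by the Pearson r of the 2 members over the 4 genotype means (horizontal axis), for overlapping, convergent and divergent opposite-strand pairs, for same-strand neighbours and for all possible pairs of loci that met the level rule (dashed). The overlapping curve lies below the dashed one, with a median of 0.56 against 0.03, while the convergent and divergent curves run close to it with medians of 0.08 and -0.06.

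All forms of overlap had a positive median. It was 0.67 for the 33 pairs that met at their 3′ ends, 0.45 for the 32 that met at their 5′ ends and 0.54 for the 92 with a span inside the other. With both members at a mean of 5 FPKM or more, the median was 0.61 in the 17 overlapping pairs left and 0.08 in the 34 others. Without the YH9 genotype the medians were 0.63 and 0.04, over 3 genotype means.

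In opposite-strand pairs the median r was 0.31 for the 28 pairs with a gap up to 1 kb, 0.16 for 52 pairs from 1 to 5 kb, -0.10 for 91 pairs from 5 to 20 kb and -0.03 for 152 pairs from 20 to 50 kb. The 725 same-strand neighbours within the same limit had medians of 0.78, 0.58, 0.25 and 0.13 in these classes and of 0.49 where they overlapped. At each gap above 0 the opposite-strand median was thus the lower one. Same-strand neighbours may be pieces of a single transcript, which the tables do not resolve. Opposite-strand neighbours more than 50 kb apart had a median r of -0.01 in 1293 pairs.

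**Figure D2:**
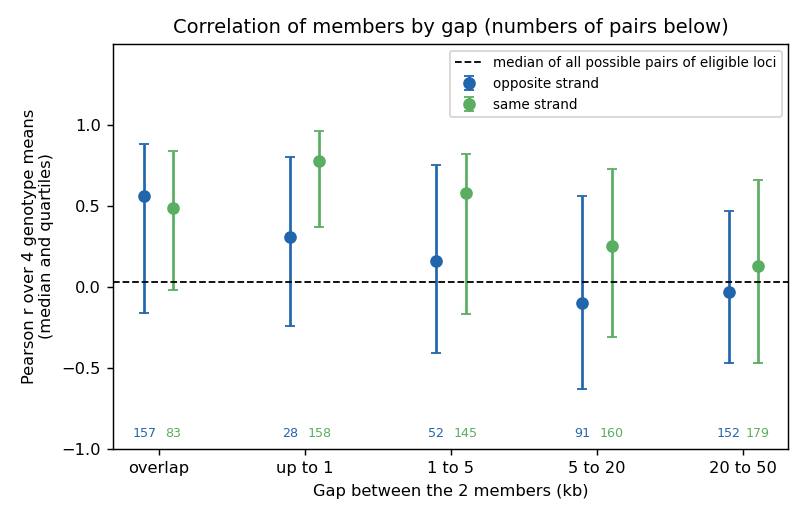
Pearson r of the 2 members over the 4 genotype means (vertical axis; points are medians, bars run from the lower to the upper quartile) by the gap between them in kb (horizontal axis), for opposite-strand and same-strand neighbours, with the number of pairs below each bar. The opposite-strand median is 0.56 in overlapping pairs and -0.03 at 20 to 50 kb, and the dashed line marks the median of all possible pairs, 0.03.

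Library-to-library variation within a genotype had little common direction in the 2 members. After each genotype's mean was subtracted, the median r over the 12 libraries was -0.09 in overlapping pairs, 0.04 in the others and 0.01 over all possible pairs. The positive median of overlapping pairs was thus seen between genotypes and not between libraries of a genotype.

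Counts of called loci showed the same split by overlap. In 157 overlapping pairs, both members were called in the same direction in at least 1 of the 6 genotype comparisons in 57 pairs and in opposite directions in 14. In the 323 other pairs the counts were 69 and 58, with 9 pairs in both. These comparisons share libraries, so the counts of single comparisons are not independent. With the 3 comparisons that do not involve YH9, the counts were 34 and 7 in overlapping pairs and 38 and 31 in the others. With tests limited to features at 5 FPKM or more in at least 3 libraries, which 32 overlapping and 77 other pairs met with both members, the counts were 12 and 6 in the former and 14 and 16 in the latter. With all 6 comparisons and the filter of 1 FPKM, a single locus was called at least once in 46.0% of all tested features. Of the 725 same-strand neighbours, both members were then called in the same direction in 248 pairs and in opposite directions in 91, with 21 in both.

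K6 against YH9 gave the most overlapping pairs moving together, 30 in the same direction beside 3 in opposite directions, with a single member called in 49. In pairs that did not overlap it gave 19 and 18, the most even of the comparisons, and K11 against YH9 gave 25 and 15. YH9 against QX1 gave 24 and 6 in overlapping pairs and 22 and 19 in the others. K6 against QX1, the comparison with the fewest calls, gave 11 and 2 in overlapping pairs and 12 and 6 in the others. In convergent pairs the counts in K6 against YH9 were 12 and 7, and in divergent pairs they were 7 and 11. Same-strand neighbours gave 95 and 20 in that comparison. K6 against K11 went the other way, with 7 and 9 in convergent and 12 and 8 in divergent pairs. In at least 1 of the 6 comparisons the classes were alike, with 36 and 28 in convergent and 33 and 30 in divergent pairs.

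**Figure D3:**
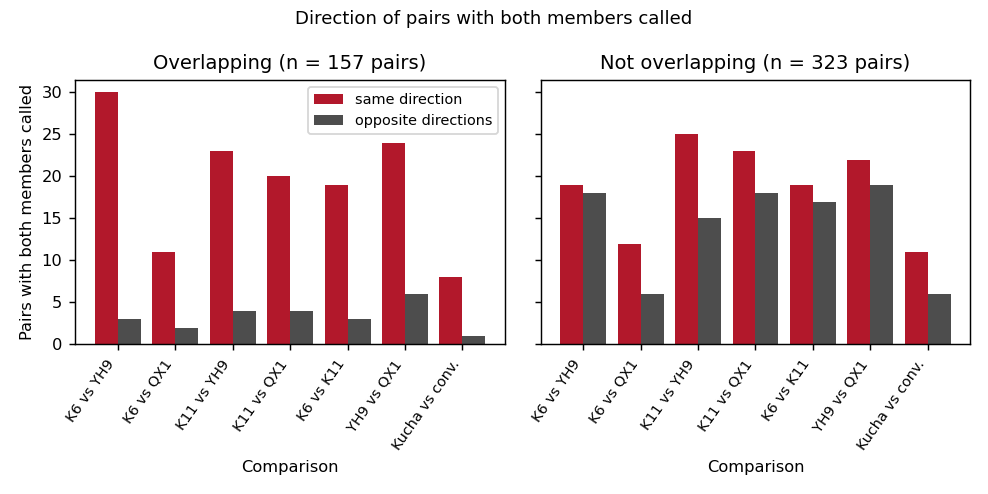
Number of pairs (vertical axis) in which both members were called, with like signs (red) or opposite signs (grey), for the 6 comparisons of genotype pairs and the Kucha mean against the conventional mean (horizontal axis). In the 157 overlapping pairs the red bars exceed the grey ones throughout, as with 30 against 3 in K6 against YH9. In the 323 other pairs the red bars are also the higher ones throughout, but by less. There K6 against YH9 gave 19 against 18 and K11 against YH9 gave 25 against 15.

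The log2 ratio of the plus-strand to the minus-strand member, a difference of log2(FPKM + 1) values, was tested over the 4 genotypes with limma's moderated F, adjusted over all 3834 neighbouring pairs at any gap and on any strands. A pair was called when the adjusted p was below 0.05 and the genotype means of the ratio spanned at least 1 on the log2 scale. The ratio was called in 346 of the 480 pairs (72.1%), where 78.6% of all neighbouring pairs were called. By class the share was 60.5% in overlapping pairs (95 of 157), 74.7% in convergent and 81.0% in divergent pairs, and 67.2% in same-strand neighbours. In 24 of the 57 overlapping pairs that moved in the same direction the ratio was not called, which does not show that it was constant. Whether the authors' counting used the strand of the reads is not stated, so reads of overlapping members could be split between them. On the log2(FPKM + 1) scale the ratio of low loci moves towards 0 as their levels fall, so a called ratio does not show that the members left a fixed proportion. With a pseudocount of 0.1 the ratio was called in 343 of the 480 pairs.

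Absence was shared in a few pairs. Of the members 154 were listed at 0 in all 3 libraries of some genotype, with 56 such members for K6, 72 for K11, 42 for YH9 and 63 for QX1. In 22 pairs both members were at 0 in the same genotype, and 14 of these pairs overlapped. QX1 had 13 such pairs and K11 had 9. A value of 0 can stand for a level below the rounding of the files.

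The Kucha mean differed from the conventional mean in 153 members (16.8%; all features 9.91%; loci meeting the level rule 18.8%). Of these 72 were higher (7.89%; all features 4.51%) and 81 were lower in Kucha (8.87%; all features 5.39%). Both members were higher in 10 pairs and lower in 9, and they went in opposite directions in 7. In overlapping pairs 8 went in the same direction and 1 did not.

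A fixed rule singled out 15 pairs: the most abundant, those that moved most in the same and in opposite directions, those that differed most between the kinds, the longest overlaps, and abundant pairs in which no member was called. They were picked by their values, so their differences describe these pairs and do not stand for the rest. Positions are those listed in the tables, and the sources used here do not name the genome build.

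**Figure D4:**
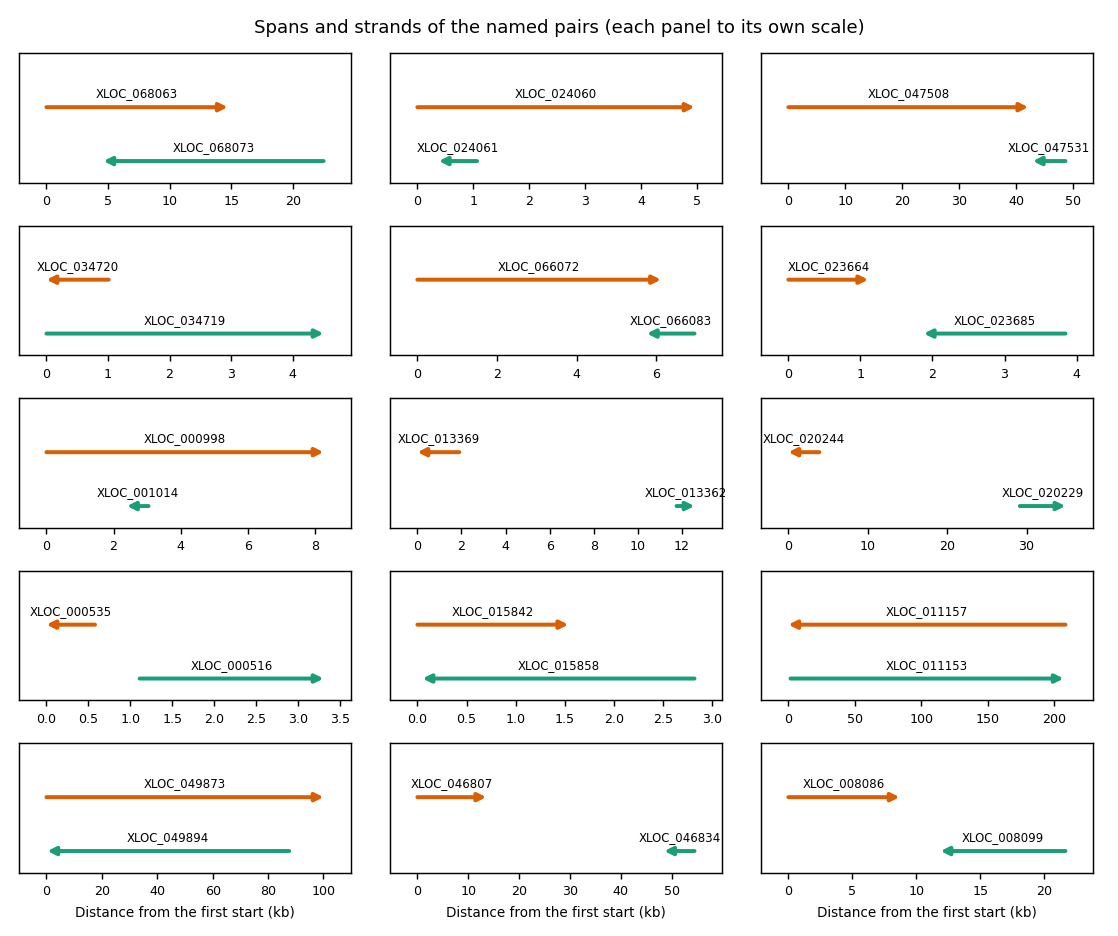
Spans of the 15 named pairs, drawn as arrows that point in the direction of the listed strand, against the distance from the lowest coordinate of the pair in kb (horizontal axis, to its own scale in each panel). Of these pairs 8 overlap, among them the pair of 208279 and 205293 bp that covers nearly the same stretch on both strands.

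XLOC_034720 and XLOC_034719 on scaffold 3117 share their lowest coordinate, the minus-strand locus from 21688 to 22699 and the plus-strand locus from 21688 to 26189. XLOC_034720 stood at 24.81, 25.07 and 25.04 FPKM in the YH9 libraries, at 0, 0.09 and 0 in K6, at 0, 0 and 0.01 in K11, and at 0 in the 3 QX1 libraries. XLOC_034719 stood at 14.40, 17.13 and 13.83 FPKM in YH9, at 0.83, 1.22 and 0.74 in QX1, and at 0 to 0.10 in the 6 Kucha libraries. Both strands were thus high in YH9 alone, with no overlap with any other genotype, and only the plus strand was measurable above 0 in QX1. The log2 difference of K6 against YH9 was -4.66 ± 0.13 for XLOC_034720 (SE; limma, adjusted p = 4.84e-11) and -3.96 ± 0.15 for XLOC_034719 (adjusted p = 4.81e-10). XLOC_034720 reached 1 FPKM in YH9 alone, and XLOC_034719 outside YH9 only at the 1.22 of QX1. Both loci so met the level rule through YH9, which means that their tests add nothing to their levels. The r over genotype means was 0.97. YH9 was also the genotype of highest estimated depth, at up to 2.80 times that of K6 replicate 2, and its part in the result was not tested.

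XLOC_024060 and XLOC_024061 lie on scaffold 22940, the plus-strand locus from 129 to 5083 and the minus-strand locus inside it from 511 to 1196. XLOC_024060 was at 45.20, 43.64 and 55.72 FPKM in K11 and at 44.94, 38.29 and 45.08 in YH9. It was at 1.56, 2.67 and 3.79 in K6 and at 2.74, 3.21 and 2.47 in QX1. The minus-strand XLOC_024061 was at 71.30, 71.05 and 85.55 in K11, 38.65, 40.21 and 41.19 in YH9, 2.81, 3.44 and 2.64 in K6, and 0.94, 1.65 and 0.40 in QX1. Both strands were high in K11 and YH9 and low in K6 and QX1, a pattern that joins a Kucha genotype with a conventional one, and the r was 0.98. K6 was below K11 by 3.78 ± 0.19 for the plus strand and 4.28 ± 0.18 for the minus strand on the log2 scale (SE; limma, adjusted p = 5.42e-09 and 1.51e-09). The ratio still varied: the plus-minus log2 ratio was 0.97 in QX1 and -0.65 in K11 (moderated F, adjusted p = 0.000159).

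XLOC_015842 and XLOC_015858 on scaffold 180 meet at their 3′ ends, from 362821 to 364357 on the plus strand and from 362873 to 365641 on the minus strand. XLOC_015842 was at 9.60, 9.18 and 8.95 FPKM in YH9 and at 3.42, 1.70 and 3.94 in QX1, while the K11 libraries were at 0.03, 0.17 and 0.02 and the K6 libraries at 0. XLOC_015858 was at 2.62, 2.82 and 2.71 in YH9 and 1.12, 1.91 and 1.79 in QX1, against 0.03 to 0.19 in the Kucha libraries. All 6 conventional libraries lay above all 6 Kucha libraries for both strands. The Kucha mean of XLOC_015858 was below the conventional mean by 1.46 ± 0.11 on the log2 scale (SE; limma, adjusted p = 1.82e-07). The pair was selected for this contrast. Both loci reached 1 FPKM in conventional libraries alone and so met the level rule through them. The test of this contrast therefore adds nothing to their levels.

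XLOC_066072 and XLOC_066083 on scaffold 869 showed the reverse. They meet at their 3′ ends over 357 bp, from 22392 to 28513 on the plus strand and from 28157 to 29355 on the minus strand. XLOC_066072 was at 20.03, 32.64 and 25.70 FPKM in K6 and 16.28, 23.08 and 17.65 in K11, against 4.53, 5.32 and 15.22 in YH9 and 5.64, 0.07 and 0.17 in QX1. XLOC_066083 was at 19.73, 31.54 and 27.27 in K6 and 25.52, 22.10 and 21.00 in K11, against 0.40, 0 and 0.32 in YH9 and 6.44, 0 and 0 in QX1. Both were higher in all Kucha than in all conventional libraries, and QX1 replicate 1 stood apart from its replicates on both strands. The mean of Kucha lay above that of the conventional varieties by 2.49 ± 0.44 for XLOC_066072 and 4.03 ± 0.42 for XLOC_066083 (SE, log2; limma, adjusted p = 0.000781 and 1.09e-05). The pair was among those selected for this contrast. Of the conventional libraries only QX1 replicate 1 reached 1 FPKM for XLOC_066083. That locus so met the level rule through Kucha, and its test adds nothing to its levels. Against YH9 alone XLOC_066072 was called in K6, at 1.69 ± 0.63, and not in K11, at 1.26 ± 0.63 (limma, adjusted p = 0.041 and 0.112). The K6 call was lost with a pseudocount of 0.1 and with a replicate block (limma, adjusted p = 0.178 and 0.0712). It was also lost when any K6 or K11 library, or YH9 replicate 1 or 2, was left out. The K11 difference was called in the fit on the compared genotypes only, without YH9 replicate 3 and without QX1 replicate 1. Here the members also shared deviations within genotypes, with an r of 0.86 over the 12 libraries. In YH9 the strands parted, with the plus strand at 8.36 ± 5.96 and the minus strand at 0.240 ± 0.212 FPKM (SD, n = 3).

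XLOC_023664 and XLOC_023685 on scaffold 2276 are convergent neighbours with a gap of 770 bp, from 1391771 to 1392880 and from 1393650 to 1395616. XLOC_023664 was at 16.04, 24.75 and 19.58 FPKM in K6 and 14.33, 13.90 and 9.13 in K11, against 2.46, 0 and 0.27 in QX1 and 0 in YH9. XLOC_023685 was at 0.58, 2.23 and 1.77 in K6 and 6.23, 9.53 and 9.71 in K11, and was listed at 0 in all 6 conventional libraries. Both loci were thus higher in Kucha, and the difference between K6 and K11 passed the test for the second alone. For XLOC_023664 the log2 difference of K6 against K11 was 0.65 ± 0.36 (SE; limma, adjusted p = 0.151), and for XLOC_023685 it was -1.95 ± 0.24 (adjusted p = 1.79e-05). The ratio of the 2 loci was called (moderated F, adjusted p = 3.04e-05).

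**Figure D5:**
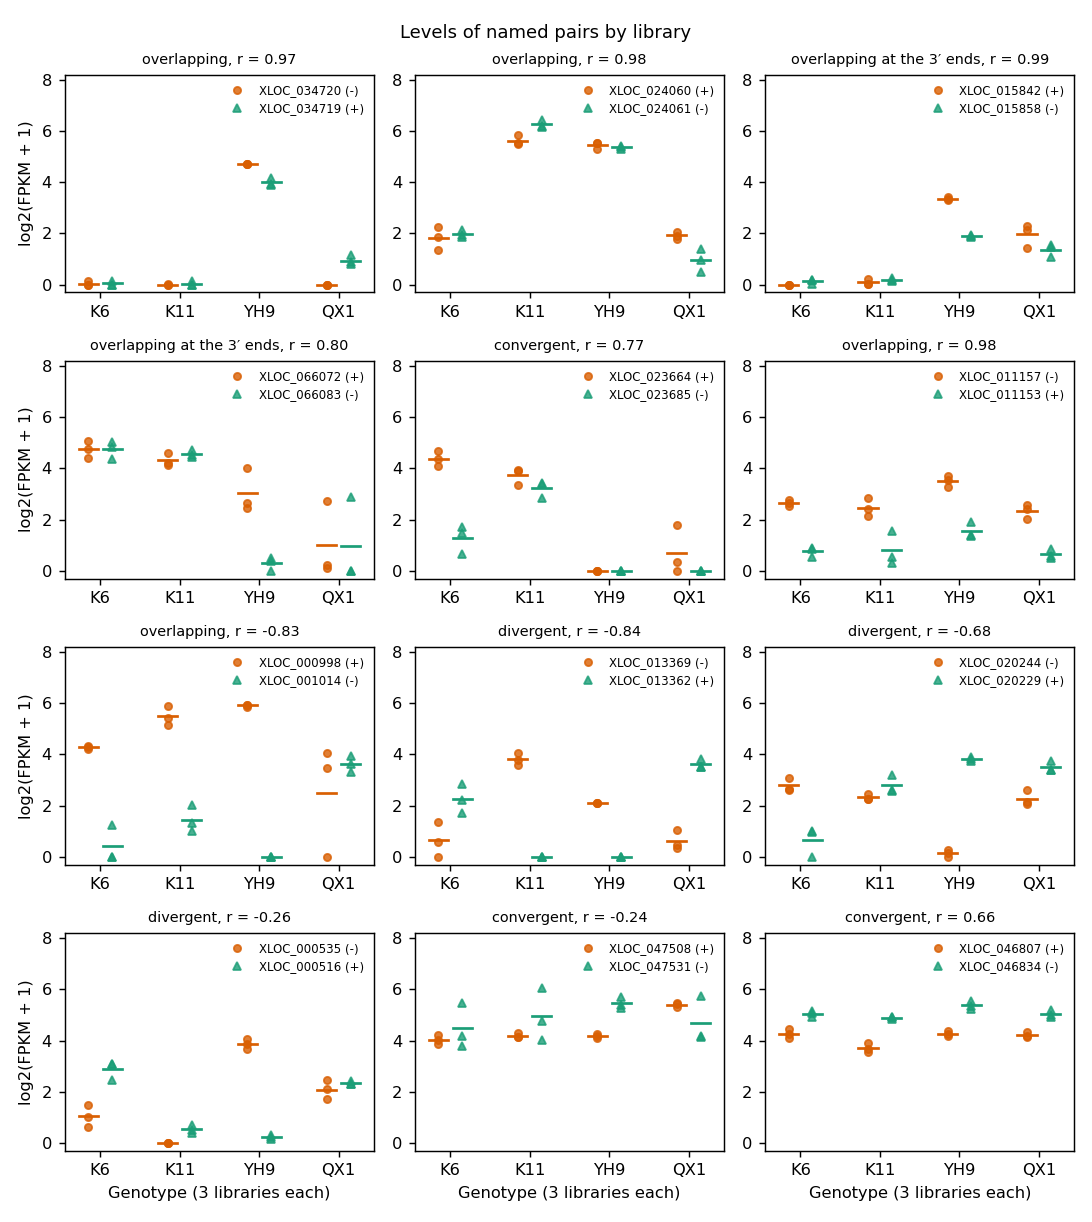
Levels of 12 of the named pairs, as log2(FPKM + 1) (vertical axis) in the 3 libraries of each genotype (horizontal axis); points and triangles are libraries of the first and second locus, with strands in brackets, and short lines are means. The upper panels show pairs with an r of 0.77 or more, such as XLOC_024060 and XLOC_024061 with r = 0.98. Members of such pairs could still part between single genotypes, as XLOC_023664 and XLOC_023685 did between K6 and K11. The third row and the first panel of the fourth show pairs called in opposite directions in at least 1 genotype comparison. An example is XLOC_013369 and XLOC_013362 with r = -0.84. The pair in the first panel of the fourth row, XLOC_000535 and XLOC_000516, was also called in the same direction in other comparisons.

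Pairs with opposite movement were led by an overlapping one. XLOC_000998 runs on the plus strand of scaffold 1048 from 847203 to 855459, and XLOC_001014 lies inside it on the minus strand from 849601 to 850245. XLOC_000998 was at 17.54, 19.34 and 18.41 FPKM in K6, 34.51, 41.94 and 57.90 in K11, 60.48, 60.14 and 57.46 in YH9 and 10.03, 0 and 15.43 in QX1. XLOC_001014 was highest where its partner was lowest, at 14.42, 11.25 and 9.04 in QX1, against 1.36, 0 and 0 in K6, 1.00, 1.49 and 3.04 in K11 and 0 in YH9. QX1 thus had the lowest level of the long locus and the highest of the inner one, with no overlap with the other genotypes on either strand. The log2 difference of K11 against QX1 was 2.98 ± 0.82 for XLOC_000998 and -2.19 ± 0.33 for XLOC_001014 (SE; limma, adjusted p = 0.013 and 0.000102). With a pseudocount of 0.1 the former was 4.13 with an adjusted p of 0.0531. QX1 replicate 2 at 0 widened the spread of XLOC_000998.

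XLOC_013369 and XLOC_013362 on scaffold 1676 are divergent, with starts 9857 bp apart, from 535993 to 537894 on the minus strand and from 547751 to 548566 on the plus strand. XLOC_013369 was at 12.94, 10.92 and 15.56 FPKM in K11 and 3.30, 3.27 and 3.25 in YH9, against 0 to 1.58 in the K6 and QX1 libraries. XLOC_013362 was at 10.32, 13.28 and 10.42 in QX1 and 2.29, 6.25 and 3.63 in K6, and was listed at 0 in all K11 and YH9 libraries. Each locus was high in the genotypes where the other was low or at 0. The log2 difference of K11 against QX1 was 3.19 ± 0.29 for XLOC_013369 (SE; limma, adjusted p = 1.23e-06).

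XLOC_020244 and XLOC_020229 on scaffold 206 are divergent with a gap of 25255 bp, from 1500263 to 1504163 and from 1529418 to 1535159. XLOC_020244 was lowest in YH9, at 0.11, 0.21 and 0 FPKM, against 3.15 to 7.55 in the other libraries. XLOC_020229 was lowest in K6, at 1.02, 0 and 0.98, against 5.0 to 13.78 elsewhere. Each locus was thus low in a single genotype, a different one for each, without overlap. K6 against YH9 gave 2.65 ± 0.19 and -3.14 ± 0.25 on the log2 scale (SE; limma, adjusted p = 8.85e-08 and 2.44e-07).

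XLOC_000535 and XLOC_000516 on scaffold 1028 are divergent with 532 bp between their starts, from 752237 to 752817 on the minus strand and from 753349 to 755544 on the plus strand. XLOC_000535 was at 13.69, 11.65 and 15.67 FPKM in YH9, 3.30, 4.46 and 2.29 in QX1, 1.01, 0.54 and 1.80 in K6 and 0 in K11. XLOC_000516 was at 4.58, 7.39 and 7.61 in K6 and 4.01, 4.39 and 3.90 in QX1, against 0.33, 0.44 and 0.63 in K11 and 0.13, 0.19 and 0.23 in YH9. In QX1 both strands were measurable, in YH9 the minus strand dominated and in K6 the plus strand did. K6 against YH9 gave -2.83 ± 0.23 and 2.64 ± 0.18 on the log2 scale (SE; limma, adjusted p = 3.4e-07 and 6.24e-08). YH9 against QX1 also called the loci in opposite directions, at 1.78 and -2.11. Other comparisons called both in the same direction, K11 against QX1 at -2.09 and -1.8 and K6 against K11 at 1.04 and 2.34. Without K6 replicate 3 the value of 1.04 was 0.82, under the fold threshold.

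The pair with the longest overlap covers scaffold 1541 from 273924 to 482202 on the minus strand (XLOC_011157) and from 275549 to 480841 on the plus strand (XLOC_011153). XLOC_011157 was at 11.95, 8.69 and 10.80 FPKM in YH9, 4.80, 5.74 and 5.29 in K6, 3.36, 4.28 and 6.16 in K11 and 4.37, 3.08 and 4.94 in QX1. XLOC_011153 was lower throughout, at 2.72, 1.57 and 1.60 in YH9 and 0.24 to 1.92 in the other libraries. The minus strand was highest in YH9 without overlap, while on the plus strand K11 replicate 3, at 1.92, reached into the YH9 range. YH9 exceeded QX1 by 1.17 ± 0.19 for XLOC_011157 (SE, log2; limma, adjusted p = 0.000178). This fell just short of the fold threshold, at 0.99, with quantile normalization. The plus-minus log2 ratio lay between -1.97 and -1.65 in the 4 genotypes and was not called (moderated F, adjusted p = 0.593). The r within genotypes was 0.81.

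The other long overlap did not follow this pattern. XLOC_049873 on scaffold 480, from 24773 to 124819 on the plus strand, was at 27.0 ± 2.78 FPKM in K6 and 25.9 ± 0.913 in QX1, while K11 stood at 18.9 ± 2.03 and YH9 at 15.8 ± 1.09 (SD, n = 3 each). XLOC_049894, from 25101 to 112397 on the minus strand, was at 10.30, 8.64 and 10.72 in K11, 0, 2.03 and 5.30 in K6, 3.04, 2.12 and 1.17 in YH9 and 4.05, 2.61 and 1.56 in QX1. The minus strand alone was highest in K11, without overlap, and the r was -0.31. K6 was below K11 by 2.02 ± 0.51 for XLOC_049894 on the log2 scale (SE; limma, adjusted p = 0.00547).

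XLOC_068063 and XLOC_068073, the most abundant pair, lie on scaffold 930 and overlap by 10104 bp at their 3′ ends, from 412046 to 426774 and from 416671 to 434555. XLOC_068063 was at 54.3 ± 2.01 FPKM in YH9, 37.2 ± 4.84 in K11, 31.3 ± 1.75 in QX1 and 21.2 ± 0.797 in K6, and XLOC_068073 was between 23.4 ± 9.84 in K6 and 28.8 ± 6.26 in QX1 (SD, n = 3 each). The plus strand thus differed between K6 and YH9, by -1.31 ± 0.09 on the log2 scale (SE; limma, adjusted p = 8.13e-08), while no difference on the minus strand passed the test. There K6 against YH9 was -0.25 ± 0.25 (adjusted p = 0.436).

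XLOC_047508 and XLOC_047531 on scaffold 4401 are convergent with a gap of 788 bp, from 2394507 to 2436606 and from 2437394 to 2443121. XLOC_047508 was at 38.76, 43.09 and 42.19 FPKM in QX1 and between 13.56 and 18.39 in the other 9 libraries. XLOC_047531 was at 40.70, 37.53 and 51.06 in YH9, and in the other genotypes replicate 2 stood well above the rest, at 42.72 in K6, 64.78 in K11 and 52.30 in QX1 against 12.92 to 26.21. The plus strand was called higher in QX1 than in each other genotype, by 1.36 ± 0.10 over K6, for which the difference of K6 against QX1 was -1.36 (SE; limma, adjusted p = 3.08e-07). No difference of XLOC_047531 passed the test. Without K6 replicate 2 its difference of K6 against YH9 was -1.46 with an adjusted p of 0.0421.

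Of the 725 same-strand pairs 133 had no member called in the 6 genotype comparisons. Of the 480 opposite-strand pairs 73 had none called in any of the 7 comparisons. The most abundant of them is XLOC_046807 and XLOC_046834 on scaffold 432, convergent with a gap of 35002 bp, from 2112003 to 2125559 and from 2160561 to 2166529. XLOC_046807 was at 18.4 ± 2.30 FPKM in K6 and 12.2 ± 1.64 in K11, beside 18.3 ± 1.32 in YH9 and 17.7 ± 1.46 in QX1, and XLOC_046834 ranged from 28.9 ± 1.15 in K11 to 40.6 ± 4.33 in YH9 (SD, n = 3 each). K11 was below K6 on the plus strand by 0.55 ± 0.12, under the fold threshold (SE, log2; limma, adjusted p = 0.00157). XLOC_008086 and XLOC_008099 on scaffold 138 come next, convergent with a gap of 3194 bp, from 880990 to 889676 and from 892870 to 902626. XLOC_008086 ranged from 22.7 ± 2.66 FPKM in K6 to 36.9 ± 12 in YH9, and XLOC_008099 from 13.9 ± 0.966 in K6 to 19.1 ± 1.33 in K11 (SD, n = 3 each). Neither pair's ratio was called (moderated F, adjusted p = 0.094 and 0.0327, the latter with a span of 0.67 on the log2 scale).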

How the data were processed

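Leaf RNA of 12 libraries was sequenced, 3 for each of 4 genotypes, grouped by the labels. Depletion of ribosomal RNA and a second strand marked with dUTP are described per the labels' protocols, but that text also names retinas, so the strand design is not certain. The authors deposited FPKM values with 2 decimals, per the file headers, and a scaffold, strand, start and end for unannotated loci, whose listed length equals their span. Bowtie2 2.2.8 and TopHat2 2.1.1 are named in the submitters' processing notes. The sources used here name neither the program behind the FPKM nor the build or a filter. The files hold no counts, so absolute depth is unknown and no counting interval is given. Replicates of a genotype shared a value in at most 1.32% of features.

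limma 3.58.1 (R 4.3.3; trended, robust prior) was applied to log2(FPKM + 1) in 1 fit over the 12 libraries and the 29364 features with at least 1 FPKM in 3 libraries. The log-ratio of neighbours was tested in the same way, with the prior trended on the mean level of both loci. Both were tested on simulated data first. Alternatives were another pseudocount, filters, quantile and trimmed-mean scaling, a replicate block, an untrended prior, fits on the compared genotypes, leaving out each library, and other gap, level and adjacency rules. Summaries used Python 3.11.15 with pandas 2.3.3. Named pairs are the top 3 by the level of the lower member; the top 4 that moved in the same and in opposite directions; the top 2 higher and lower in Kucha; the top 2 by overlap; and the top 2 by level with no call. Members, lists and rules were chosen with earlier results of these data known. The identifiers matched 0 of the 80110 genes of the reference table, so the leaf label was not checked against marker genes and no sequence is shown.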

Additional observations from a re-analysis of the deposited data

Results flagged for a closer look

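XLOC_023685, the minus-strand member of a convergent pair that was higher in Kucha on both strands, differed between the Kucha genotypes themselves. K6 was below K11 by a log2 difference of -1.95 ± 0.24 (SE; limma, adjusted p = 1.79e-05), with 1.53 ± 0.851 FPKM in K6 and 8.49 ± 1.96 in K11 (SD, n = 3 each), and both conventional varieties were listed at 0. All 3 K11 libraries lay above all 3 K6 libraries.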

How the results depend on the processing

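Under the alternatives, 91 values of the 29 summaries (called members, pairs called with like or opposite signs, median r and called ratios) moved, and 286 did not. Signs changed in the median r alone: that over all pairs, 0.18, was below 0 with the 5 FPKM filter and without the overlapping pairs, and that of pairs that do not overlap, -0.01, was above 0 under several settings. Filters and rules that leave fewer loci, pairs or comparisons lower the counts by construction. Values are ordered with K6 first against YH9 and then QX1, K11 against the same, the Kucha genotypes against each other, YH9 against QX1, and the Kucha against the conventional mean, unless stated. The reported counts were 304, 201, 289, 264, 253, 311 and 153 called members, 49, 23, 48, 43, 38, 46 and 19 pairs called in the same direction, and 21, 8, 19, 22, 20, 25 and 7 in opposite directions.

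With at least 5 FPKM in 3 libraries, which leaves fewer loci, called members were 161, 112, 151, 146, 129 and 156 in the 6 genotype comparisons. Pairs called in the same direction were 15, 7, 11, 10, 10, 11 and 11, and in opposite directions 8, 4, 8, 12, 5, 8 and 4. The median r was -0.05 over all pairs and -0.12 in pairs that do not overlap, beside 0.63 in overlapping pairs. In at least 1 of the 6 comparisons 12 overlapping pairs moved alike and 6 went opposite ways, and 14 and 16 of the others.

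With gaps up to 10 kb, called members were 184, 110, 163, 156, 145, 183 and 91, and pairs in opposite directions 12, 2, 5, 6, 9, 14 and 2. The median r was 0.39 over all pairs and 0.08 without overlap, and 176 ratios were called. With gaps up to 5 kb, called members were 154, 96, 148, 128, 131, 156 and 82, and pairs in opposite directions 5, 2, 5, 4, 7, 8 and 2. The median r was then 0.42 over all pairs and 0.27 without overlap, with 146 called ratios. Without the overlapping pairs K6 against YH9 called 202 members, pairs in the same direction were 19, 12, 25, 23, 19, 22 and 11, and the median r was -0.01.

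With a pseudocount of 0.1, pairs in opposite directions were 35, 21, 31, 35 and 37 in the first 5 comparisons and 21 for the kinds. Pairs in the same direction were 42 in K6 against QX1, 58 in K6 against K11, 75 in YH9 against QX1 and 51 for the kinds, where 318 members were called. Overlapping pairs in opposite directions in at least 1 of the 6 comparisons were 26, beside 79 in the same direction, and the others gave 87 and 99. The cause was not tested.

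The median r of overlapping pairs, 0.56, was 0.46 with quantile normalization, 0.48 with trimmed-mean scaling and 0.40 with Spearman's rho. Where both members were called in at least 1 genotype comparison, a choice that favours variable loci, the median r was 0.42 over all pairs and 0.78 in overlapping ones. The splits by overlap under each refit and the next 2 settings were added after seeing the data. With both members at a mean of 5 FPKM or more, pairs that do not overlap had a median of 0.08. Without the comparisons that involve YH9, 34 and 7 overlapping and 38 and 31 other pairs were called with like and with opposite signs.

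Leaving out each library in turn moved 1 summary value by over 1.5 times: pairs in opposite directions in K6 against QX1 ranged from 5, without K6 replicate 2, to 11. The median r ranged from 0.51 to 0.58 in overlapping and from -0.04 to 0.04 in other pairs. No pairing by replicate number was seen, since deviations of same-numbered libraries from their genotype means correlated between -0.103 and 0.056. Such correlations over many features cannot exclude a shared effect at single loci. With the replicate number as a block, called members were 303, 202, 288, 264, 252, 311 and 153, and called ratios 345 against 346. Absolute depth is unknown, so a listed 0 sets no limit, and the low levels of most members limit what these files can show.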
